A study of Mus musculus with 10 samples.

Results

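Cytochrome P450 enzymes of families 2 to 4, carboxylesterases and the enzymes that attach glucuronic acid or sulfate were examined as a group of 94 genes out of 27729 gene names on the array. Within these families the members were taken by name: every gene probe whose name in the scanner files began with Cyp2, Cyp3 or Cyp4 and a letter, or with Ces, Ugt or Sult and a digit. The group holds 40 Cyp2, 6 Cyp3, 16 Cyp4, 6 Ces, 15 Ugt and 11 Sult genes on 131 probes, and each gene is represented by its brightest probe. A total of 7 genes are given under their current symbols, among them Ces1g, which the array calls Ces1. The deposited arrays compared Lgr4/5-deleted with wild type intestine and organoids grown without and with R-spondin, the secreted ligand of these receptors.

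P450 enzymes are haem proteins that oxidise fatty acids, steroids and foreign compounds, and the small intestine is, after the liver, the body's main site of this first step. Carboxylesterases cut ester bonds in drugs and lipids. UDP-glucuronosyltransferases (Ugt) and sulfotransferases (Sult) then join the products to glucuronic acid or sulfate, so that they can be excreted. Along the crypt-villus axis these enzymes are features of absorptive enterocytes, whereas the crypt base, where Wnt and R-spondin signals are strongest, holds stem and Paneth cells. Many of the genes are switched on by receptors that sense foreign compounds, such as the aryl hydrocarbon receptor (Ahr) and the nuclear receptors Nr1i2 and Nr1i3.

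Crypts were isolated with EDTA from the small intestine 1 day after deletion in Lgr4 fl/fl, Lgr5 fl/fl mice that carried AhCre, which the labels also call P450Cre. AhCre is a recombinase under a Cyp1a1-type promoter that is itself turned on by xenobiotics. The agent is not named, and for the wild type mice of the control crypts neither AhCre nor treatment with it is recorded. Deleted and wild type crypt RNA were hybridised together on 4 arrays, as 2 biological replicates with each dye arrangement. Organoids, crypt cells grown as miniature epithelia, came from VillinCre, Lgr4 fl/fl, Lgr5 fl/fl mice 1 day after deletion (2 cultures) and from VillinCre wild type mice, labelled as given tamoxifen for 1 day (2 cultures). For the withdrawal, 1 culture was kept for 1 day after splitting in EGF and Noggin and 1 in EGF, Noggin and R-spondin. The labels do not say whether the crypt replicates were single mice or pools, so p-values measure only the spread between these samples.

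All changes are log2 values, deleted over wild type or without over with R-spondin, and signals are background-corrected intensities in arbitrary units, which can be compared between samples for 1 gene but not between genes. A gene was tested where 1 or both of the compared groups had its probe clearly brighter than background on all their arrays. Spots that the scanner software marks as outliers were left out. A gene thus also needed a remaining value in both crypt replicates, all 4 organoid arrays or both R-spondin cultures. In crypts 54 of the 94 genes were tested, in deleted organoids 58, in both systems 50, and without R-spondin 75 were measured. In deleted crypts 54 genes were above background on all arrays and in wild type crypts 56, in wild type organoids 60 and in deleted organoids 64. A further 9 genes were above background on no array: Cyp2a5, Cyp2a12, Cyp2ab1, Cyp4a29, Cyp4a31, Sult3a1, Sult6b1, Ugt2b1 and Ugt8a. Lgr4 and Lgr5 were lower on all 4 crypt arrays, by fits of -1.56 and -1.68 (limma adjusted p 0.0804 and 0.0792). The replicates were not equally clean: over all tested probes the 2 arrays of replicate 2 correlated at 0.920 and those of replicate 1 at 0.351. In the organoid deletion arrays 3.66% to 4.26% of gene spots were above background in the reference channel (Cy3). In the organoid channel (Cy5) 46.9% to 50.7% were. Spots meant to bind nothing (negative controls) had Cy3 medians of 5883 to 6564, above the gene spot medians of 1830 to 1933. This reference channel was thus faulty, so organoid changes are given from Cy5. A ratio to it cannot decide a direction. The ratio to the reference had the other sign for 19 of the 57 members with both measures, and it is given beside the members named for their organoid values where this is so. With so few arrays, precision is limited throughout.

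The promoters of the Cyp3a genes and of Ces1g are shown because the results below turn on these genes. The sequences are the 150 bases before the RefSeq start, read 5′ to 3′ on the gene's strand, which is the minus strand in each case, in build GRCm38.p6. Capitals mark the letters CAAAGTCCA, a site of the enterocyte and liver factor Hnf4.
Ces1g, chr8:93337210-93337359: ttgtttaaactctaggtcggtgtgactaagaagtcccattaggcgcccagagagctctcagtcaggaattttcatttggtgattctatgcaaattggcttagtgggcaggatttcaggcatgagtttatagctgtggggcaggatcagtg
Cyp3a13, chr5:137921620-137921769: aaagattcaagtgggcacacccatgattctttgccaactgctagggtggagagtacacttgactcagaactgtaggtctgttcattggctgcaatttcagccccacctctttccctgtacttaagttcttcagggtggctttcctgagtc
Cyp3a11, chr5:145879855-145880004: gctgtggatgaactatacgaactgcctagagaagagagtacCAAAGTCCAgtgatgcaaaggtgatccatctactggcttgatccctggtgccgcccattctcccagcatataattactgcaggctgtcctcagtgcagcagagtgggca
Cyp3a16, chr5:145469724-145469873: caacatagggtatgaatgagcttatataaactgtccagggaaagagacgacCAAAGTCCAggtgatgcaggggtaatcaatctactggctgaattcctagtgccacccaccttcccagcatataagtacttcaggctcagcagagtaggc
Cyp3a41a, chr5:145720137-145720286: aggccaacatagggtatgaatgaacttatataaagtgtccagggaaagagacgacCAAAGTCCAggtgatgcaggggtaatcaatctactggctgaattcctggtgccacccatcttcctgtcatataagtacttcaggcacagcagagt
Cyp3a44, chr5:145805875-145806024: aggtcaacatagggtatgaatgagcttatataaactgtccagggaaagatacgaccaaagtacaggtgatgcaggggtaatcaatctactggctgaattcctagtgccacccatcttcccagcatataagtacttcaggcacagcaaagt
Cyp3a25, chr5:146009619-146009768: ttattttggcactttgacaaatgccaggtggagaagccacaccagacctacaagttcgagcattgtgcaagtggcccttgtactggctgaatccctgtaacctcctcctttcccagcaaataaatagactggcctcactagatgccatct

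Of the 94 genes, 75 had an entry in the RefSeq promoter table. The Hnf4 letters, searched on both strands over the 250 bases before the start, lay in 6 of 75 member promoters (8.0%), against 103 of 27025 promoters in all (0.381%). The 6 are Cyp3a11, Cyp3a16, Cyp3a41a, Cyp2c40, Cyp2c65 and Cyp2c70, all with the site on the gene's own strand. It began at -109 in Cyp3a11, -99 in Cyp3a16 and -95 in Cyp3a41a. Cyp3a44 differed from it at 1 base, C7A counted from the first letter of the site, also at -95. The promoters of Cyp3a16, Cyp3a41a and Cyp3a44 were 91.3% to 94.4% identical in alignment, and that of Cyp3a11 was 72.5% to 76.6% identical to these. Cyp3a13 and Cyp3a25 were 52.2% to 58.4% identical to each other and to the rest. The members with the site are close relatives of each other, so they are not independent of one another.

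The Ahr core letters GCGTG lay in 11 of 75 member promoters (14.7%) against 28.2% of all promoters, and the antioxidant element TGACNNNGC in 1 (1.33%) against 10.1%. The letters ATCAAAG, bound by the Wnt effector TCF, lay in 3 (4.0%) against 3.23%. No hits of different motifs overlapped in the members. Of the 17 promoters of genes higher in crypts at an unadjusted p under 0.05, as described next, 3 held the Ahr letters (Cyp2j9, Cyp2j13 and Cyp4f14), 1 the antioxidant element (Cyp4f18) and 0 the Hnf4 or TCF letters. Of the 22 of genes past 2-fold higher without R-spondin, 4 held the Ahr letters and 2 the Hnf4 letters. In these 22, 1 held the TCF letters (Cyp2c39) and 0 the antioxidant element. A match describes letters only, and its absence says only that they are not in this window.

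The first comparison asks what the enzymes do in crypts in the first day without Lgr4 and Lgr5. As a group they stood higher in deleted crypts: 42 of the 54 genes tested had a positive fit, and the median was 0.35 against -0.02 over all 11979 genes tested. The median was 0.51 in replicate 1 and 0.33 in replicate 2. In limma, 1 of the 54 passed at an adjusted p under 0.05, Ces1g, which rose, where 0.0501% of all genes were called higher; 0 were lower, where 0.00835% of all genes were. At an unadjusted p under 0.05, 20 of 54 were higher and 2 lower, beside 6.46% and 7.37% of all genes. Of 50 genes with a value on every array, 24 were higher on all 4 arrays and 3 lower on all 4, beside 16.2% and 17.3% of all such genes. The number called moved with the processing. With the scanner software's processed signals 11 members passed the adjusted threshold, where 3.64% of all genes were called higher. With dim probes also tested 0 passed, where 0% were. Without replicate 1 or 2 the remaining crypt value has no spread of its own, so no member calls are given. The 11 were all higher, and they were Ces1g, Cyp3a13, Cyp2j6, Cyp2j13, Cyp4b1, Ugt1a6b, Ugt1a9 and 4 Ugt2b genes. By family the medians were 0.96 for Ugt, 0.62 for Ces, 0.54 for Cyp4, 0.29 for Cyp2, 0.27 for Cyp3 and 0.16 for Sult. Those of Cyp3 and Sult were -0.85 and -0.34 without replicate 1, while the other 4 stayed above 0 in each alternative run.

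**Figure D1:**
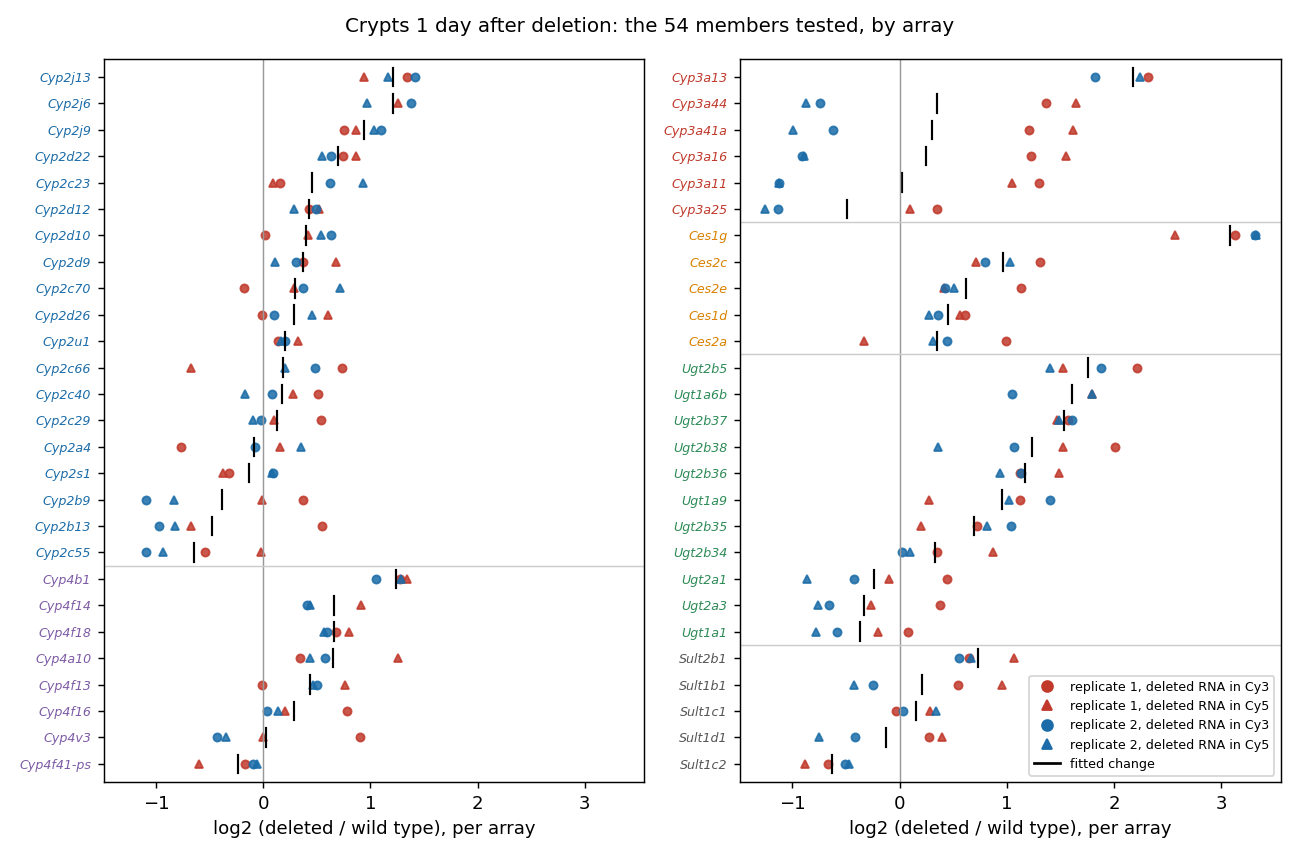
Log2 ratio of deleted to wild type crypt RNA (x axis) for the 54 genes tested, sorted within families, with 1 point per array (circles: deleted RNA in Cy3, triangles: in Cy5, red: replicate 1, blue: replicate 2) and a bar at the fitted change. Ces1g stands apart at 3.09, the points of Ugt2b37 and Cyp4b1 lie close together, and those of 5 Cyp3a genes fall into a red cluster on the right and a blue cluster on the left.

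Among the P450 genes of family 2, the Cyp2j subfamily stood highest. These are epoxygenases, which turn arachidonic acid into epoxides, and all 3 tested were higher on every array that read them. Cyp2j13 gave 1.34, 0.94, 1.41 and 1.16 on the 4 arrays, a fit of 1.21 (SE 0.22) with a limma adjusted p of 0.14. Cyp2j6 gave 1.25, 1.37 and 0.97 on 3 arrays, and Cyp2j9 gave 0.76, 0.86, 1.10 and 1.03 on 4. The fits were 1.21 and 0.94, and neither passed after adjustment. A second Cyp2j6 probe agreed in sign on all 4 arrays, at 1.01, 1.50, 1.74 and 1.67. The 2 other Cyp2j13 probes were not above background on any array.

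The other large subfamilies of Cyp2 stood closer to 0. Cyp2d22, one of the Cyp2d enzymes that handle many basic drugs, gave 0.75, 0.87, 0.63 and 0.55, a fit of 0.70 (SE 0.22). All 5 Cyp2d genes tested had positive fits, with a median of 0.40. The 6 Cyp2c genes tested ran from -0.65 for Cyp2c55 to 0.45 for Cyp2c23, both of them fatty acid oxidases, with a median of 0.18. Cyp2c55 was lower on every array, at -0.54, -0.02, -1.09 and -0.93, and was 1 of the 2 genes lower at an unadjusted p under 0.05. Cyp2b9 and Cyp2b13 gave fits of -0.39 and -0.48 that rested on replicate 2, where the median of these genes was -0.93.

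The Cyp3a genes, which encode the main drug-oxidising P450s of liver and gut, split by replicate. Cyp3a11 gave 1.30 and 1.05 on the arrays of replicate 1 and -1.12 and -1.13 on those of replicate 2. Its signal was 20124 and 11765 in deleted against 8180.3 and 5694 in wild type crypts in replicate 1, and 2844 and 3021 against 6202 and 6598 in replicate 2. The wild type signals thus lay close together and the deleted ones far apart. Cyp3a16 gave 1.23 and 1.56 on the arrays of replicate 1 and -0.91 and -0.89 on those of replicate 2.

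Cyp3a41a gave 1.21 and 1.62 on the arrays of replicate 1 and -0.62 and -0.99 on those of replicate 2. Cyp3a44 gave 1.37 and 1.65 on the arrays of replicate 1 and -0.75 and -0.87 on those of replicate 2. Cyp3a25 gave 0.35 and 0.09 on the arrays of replicate 1 and -1.14 and -1.26 on those of replicate 2, and its second probe gave 0.63 on 1 array of replicate 1 and -0.67 and -0.89 in replicate 2. Within each replicate both dye arrangements gave the same sign for all 5 genes, so the split lies between the replicates and not between the dyes. The 5 fits ran from -0.49 to 0.35, with standard errors up to 0.52, and none was called. These genes lie close together on chromosome 5 and are near-identical in part, so a probe for one may also read another; this was not tested.

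Cyp3a13, whose promoter lies apart from the others on chromosome 5, showed no such split. It gave 2.32, 1.82 and 2.24 on 3 arrays, the first from replicate 1. Its signal was 59554 to 73476 in deleted and 13963 to 16856 in wild type crypts, with no overlap. The fit was 2.18 (SE 0.23), and its limma adjusted p of 0.0514 just missed 0.05.

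**Figure D2:**
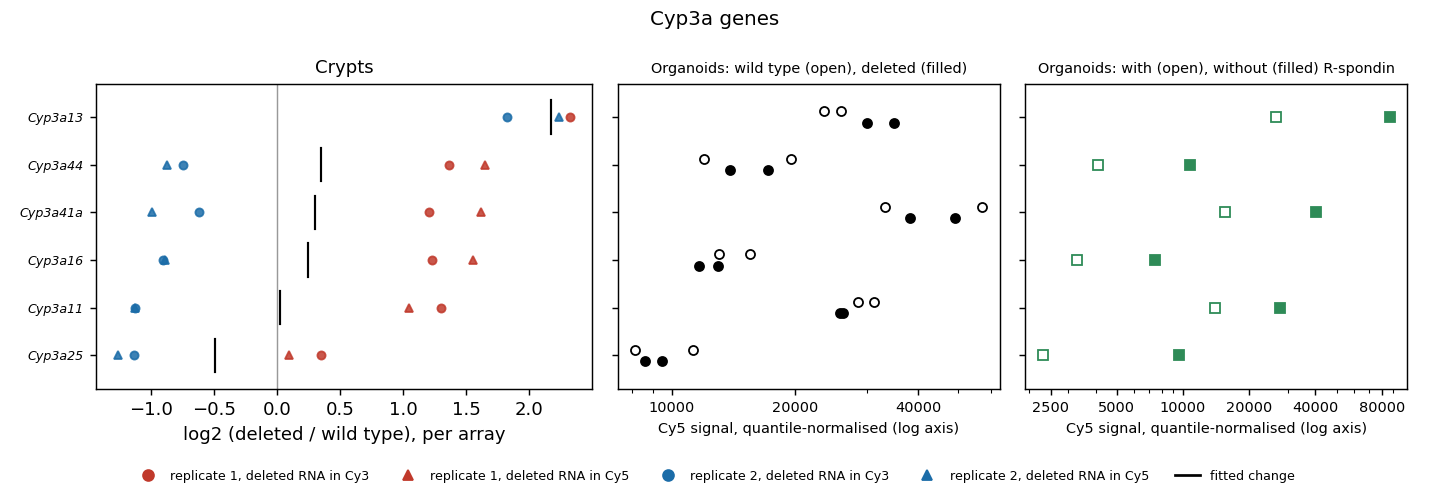
The 6 Cyp3a genes in crypts (left, log2 deleted over wild type per array, bar at the fit), in wild type (open) and deleted (filled) organoids (middle) and in organoids with (open) and without (filled) R-spondin (right), both of these as Cy5 signals on log axes with 1 point per culture. In crypts 5 genes lie right of 0 in replicate 1 and left of 0 in replicate 2, Cyp3a13 lies near 2 in both, and without R-spondin all 6 signals are higher.

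Other genes took the same side as the split Cyp3a genes. The cytosolic sulfotransferase Sult1b1 gave 0.54 and 0.96 on the arrays of replicate 1 and -0.25 and -0.42 on those of replicate 2. Sult1d1, which acts on catecholamines, gave 0.27 and 0.39 on the arrays of replicate 1 and -0.41 and -0.75 on those of replicate 2. Of the enterocyte markers, no members of these families, Apob was 1.35 in replicate 1 and -0.15 in replicate 2, and Apoa1 1.01 and -0.13. The other markers tested were positive in both replicates, such as Sis at 1.25 and 0.06 and Fabp1 at 2.13 and 0.93. Over the 13 enterocyte markers tested the median was 1.01 in replicate 1 and 0.45 in replicate 2. Their part in the Cyp3a split was not tested.

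In family 4, whose enzymes mostly hydroxylate fatty acids at the end of the chain, 7 of 8 fits were positive. Cyp4b1 was the highest, at 1.28, 1.34, 1.05 and 1.28, a fit of 1.24 (SE 0.22). Cyp4f14 and Cyp4f18, which inactivate leukotrienes, gave fits of 0.66 and 0.66, and Cyp4a10, a target of the fatty acid receptor Ppara, gave 0.65. Each was higher on every array that read it, from 0.34 to 1.25, and none passed after adjustment.

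All 5 member carboxylesterases tested had positive fits, and one of them rose. Ces1g, a lipid-hydrolysing esterase, gave 3.13, 2.57, 3.31 and 3.33 on the 4 arrays. Its signal was 2719 to 5208 in deleted and 401 to 594 in wild type crypts, so the groups were far apart. The fit was 3.09 (SE 0.24) with a limma adjusted p of 0.026. A second probe gave 2.69, 2.08, 2.90 and 3.15. The scanner software marks some spots as outliers. The call did not hold when these entered the background correction and were left out only afterwards, at 2.52 (limma adjusted p 0.0697). With dim probes also tested it did not hold either, at 3.09 (limma adjusted p 0.441). Without replicate 2 the value was 2.85, and no spread between crypt samples is left to test it.

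The Ces2 enzymes, the intestinal type that opens many ester prodrugs, stood closer to 0. Ces2c gave 1.31, 0.71, 0.79 and 1.03, a fit of 0.96 (SE 0.22), and its second probe gave 0.60 to 1.20. Ces2e gave 1.13, 0.42, 0.43 and 0.51, with the first array apart from the others, and a fit of 0.62. The lipase-type Ces1d, higher on all 4 arrays, gave 0.45. None of these 3 passed after adjustment.

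The glucuronosyltransferases had the highest family median, and within it the Ugt2b subfamily, which acts on steroids and bile acids, was above 0 in 6 of 6 genes with a median of 1.21. Ugt2b5 gave 2.22, 1.52, 1.88 and 1.41, a fit of 1.76 (SE 0.22). Ugt2b37 gave 1.57, 1.47, 1.61 and 1.49, a fit of 1.54 (SE 0.22). Ugt2b38 gave 2.01, 1.53, 1.07 and 0.36, a wider spread around a fit of 1.24 (SE 0.31). The limma adjusted p-values were 0.0627, 0.082 and 0.218, so none passed. The Ugt2b genes are also close copies, and cross-reading between their probes was not tested.

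Ugt1a6b, a phenol-conjugating form that is a known Ahr target, gave 1.79, 1.05 and 1.79 on 3 arrays and a fit of 1.61 (SE 0.23) (limma adjusted p 0.0847). Its second probe gave 0.96, 0.77, 1.61 and 1.41. Ugt1a1, which conjugates bilirubin, did not share this, with a fit of -0.37. Ugt2a1 and Ugt2a3 gave fits of -0.24 and -0.33, with a median of 0.11 in replicate 1 and -0.68 in replicate 2.

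The sulfotransferases had no common direction. Sult2b1, which sulfates cholesterol and other sterols, gave 0.65, 1.07, 0.55 and 0.67, a fit of 0.74 (SE 0.22). Sult1c2 was lower on all 4 arrays, at -0.67, -0.88, -0.51 and -0.47, a fit of -0.63 (SE 0.23). Sult1c1 gave 0.16, and the 5 genes had a median of 0.33 in replicate 1 and -0.34 in replicate 2. None passed after adjustment.

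Genes that work with these enzymes, taken from lists of the pathway and not members, were partly higher too. In the list of other oxidising and hydrolysing enzymes 6 of 15 were higher and 1 lower at an unadjusted p under 0.05. Beside this, 6.46% and 7.37% of all genes were. The list's median was 0.41. Cbr3, a carbonyl reductase, rose by 4.97 (SE 0.22, limma adjusted p 0.00453) and Cyp1a1, the classical Ahr target, by 3.66 (SE 0.25, limma adjusted p 0.0150). Ahrr, the repressor that Ahr itself induces, gave 2.97 with a limma adjusted p of 0.0514. The Cyp1a1 promoter is of the type that drives AhCre, and whether the wild type mice received the inducing agent is not stated; the agent's part in the members' values cannot be told apart from that of the deletion.

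Of 15 regulators tested 4 were higher and 0 lower at an unadjusted p under 0.05, with a median of 0.33, led by Ahrr and by the xenobiotic receptor Nr1i3 at 1.06. Of 13 genes for electron and haem supply 4 were higher and 0 lower, among them Por, the reductase that feeds electrons to all these P450s, at 1.09, and Cyb5r3 at 1.10. Of 11 genes that supply conjugation cofactors 2 were higher and 1 lower. The 2 were Papss2, which makes the activated sulfate, at 1.37, and Ugdh, which makes the activated glucuronic acid, at 1.25, while the list's median was 0.01. Of 17 transporters 8 were higher and 1 lower with a median of 0.31, led by the conjugate exporters Abcc2 at 1.18 and Abcc3 at 1.16. Over all genes, 6.46% were higher and 7.37% lower at an unadjusted p under 0.05. Apart from Cbr3 and Cyp1a1, none of the genes in these lists passed after adjustment.

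Markers of several cell types differed in the same crypts. All 13 enterocyte markers tested were above 0, with a median of 0.61, and the summed signal of 9 of them was 172598 to 284059 in deleted against 141437 to 162201 in wild type crypts. Of 12 immune markers 11 were above 0 with a median of 1.71. All 7 Paneth markers were below 0 with a median of -1.15, and 6 of 7 stem cell markers with a median of -0.68. The stem cell markers include Lgr5 at -1.68, itself a deleted gene, so its fall does not speak for a change in cells. All 5 stromal markers tested were below 0 with a median of -0.76, and the 7 goblet markers had a median of -0.07. In bulk RNA, more cells of a type and more RNA per cell cannot be told apart, and the part of these shifts in the members' values was not tested. Of 10 hepatocyte markers, Ahsg and Fga were not above background on any crypt array, and 1 could be tested, Cps1 at -1.12, which the gut also makes. The rest were above background on some but not all crypt arrays: Alb, Ttr, Apoh, Fgb, Serpina1c, Hpx and Tat.

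The second comparison asks the same of organoids, which are grown from epithelium alone and where 8 to 9 of 13 immune markers were not above background. The members again stood slightly higher in the deleted cultures by Cy5: 48 of 58 fits were positive and the median was 0.35 against 0.02 over 12870 genes. The ratio to the faulty reference channel gave a median of 0.07. In limma 0 of 58 passed at an adjusted p under 0.05, beside 0.0233% of all genes higher and 0.00777% lower. At an unadjusted p under 0.05, 8 were higher and 1 lower, beside 3.46% and 4.33% of all genes. Both deleted cultures lay above both wild type cultures for 26 of the 58 genes and below them for 5, beside 18.3% and 18.7% of all genes. By family the medians were 0.48 for Ces, 0.44 for Cyp2, 0.37 for Sult, 0.33 for Cyp4, 0.23 for Ugt and -0.05 for Cyp3. By the ratio the sign of 3 of them turned, to -0.04 for Ces, -0.0022 for Cyp4 and 0.06 for Cyp3.

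Each slide held 1 culture of either group, and the 2 slides differed. With the slide as a block, limma called 4 members at an adjusted p under 0.05, all higher: Cyp2j9 (0.0178), Cyp2c70 (0.0395), Cyp4f13 (0.0418) and Ugt1a6b (0.0485). The block raised the calls over all genes too, to 0.971% higher and 1.36% lower. In that fit 23 of the members were higher and 1 lower at an unadjusted p under 0.05, beside 9.47% and 9.34% of all genes. Within slides the member median was 0.29 and 0.32.

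Cyp2j9 had Cy5 signals of 2092 and 1356 in wild type and 4946 and 3316 in deleted cultures, a fit of 1.27 (SE 0.32). Cyp2c70, which converts bile acids to the muricholic acids of the mouse, had 478 and 306 against 1265 and 556, a fit of 1.13 (SE 0.44). That the 2 groups did not overlap was a condition for naming these genes by their organoid values, and the cultures of a group differed. Ugt1a6b had 95715 and 44696 against 173684 and 88378, groups that overlapped, with a fit of 0.92 (SE 0.47).

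Cyp4f13 had 1109 and 1064 against 2388 and 1954, a fit of 0.99 (SE 0.22), and Cyp4f16, another fatty acid hydroxylase, gave 0.94. Cyp2u1, a fatty acid hydroxylase found outside the liver, gave 0.88. By the ratio to the reference, Cyp2j9 gave -0.38 and Cyp4f13 -1.82, so their direction rests on the Cy5 channel. All 6 Cyp2d genes tested had positive fits, with a median of 0.65.

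Ces1g had the opposite sign to crypts. Its Cy5 signal was 603 and 413 in wild type and 318 and 227 in deleted cultures, a fit of -0.89 (SE 0.30), and its second probe gave -0.68. By the ratio it was 0.01, and by the ratio of the second probe -0.68. It was not called, with a limma adjusted p of 0.556, or 0.0515 with the slide as a block. Ces2a and Ces2c, by contrast, gave 0.49 and 0.54, and Ces2c gave -0.17 by the ratio.

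The Cyp3a genes differed little in organoids. Cyp3a13 had 23539 and 25918 in wild type and 29962 and 34792 in deleted cultures, a fit of 0.39. Cyp3a11 had 31242 and 28531 against 25729.7 and 26181, a fit of -0.20, and Cyp3a16 gave -0.21, or 0.06 by the ratio. The remaining 3 ran from -0.08 to 0.01, with groups that overlapped. By the ratio they turned sign, Cyp3a25 to 0.11, Cyp3a41a to 0.05 and Cyp3a44 to -0.10. None of the 6 was called, with or without the slide as a block.

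Among the Ugt genes whose deleted and wild type cultures did not overlap, the greatest values were 0.74 for Ugt1a1, 0.35 for Ugt2b35 and 0.28 for Ugt2b37. The last 2 gave -0.22 and -0.18 by the ratio. Sult2b1 gave 0.32 and the dim Sult4a1 0.20. In these cultures 11 of 12 enterocyte markers were above 0, with a median of 0.43, and all 7 stem cell markers below 0, with a median of -2.10. Cyp1a1 was not above background in deleted organoids, and Ahrr in neither organoid group. The pathway lists had organoid medians of 0.43 for regulators, 0.33 for the other oxidising enzymes, 0.27 for cofactor supply, 0.19 for transporters and 0.12 for electron and haem supply. At an unadjusted p under 0.05, 1 of 16 regulators, 1 of 16 other oxidising enzymes and 3 of 17 transporters were higher. Of 10 cofactor genes and 11 electron and haem genes 0 were higher. Lower at that threshold were 2 of 17 transporters, Abcc4 at -1.59 and Slco3a1 at -1.14. So was 1 of 11 electron and haem genes, Alad at -0.77, while the other 3 lists held 0. Beside these, 3.46% of all genes were higher and 4.33% lower.

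The third comparison tests the difference between the 2 systems itself, in 1 limma model over crypt and organoid values. Of 50 members tested, 1 passed at an adjusted p under 0.05 with the larger change in crypts, beside 0.0551% of all 10881 genes, and 0 the other way, beside 0.046%. It was Ces1g, with a difference of 3.98 (SE 0.40) and a limma adjusted p of 0.00865. By the organoid ratio its difference was 3.08 with a limma adjusted p of 0.127. Without crypt replicate 2 it was 3.74, where no spread between crypt samples is left to test it. At an unadjusted p under 0.05, 8 were higher in crypts and 1 lower, beside 2.89% and 2.91% of all genes. The 8 include 4 Ugt2b genes, while the difference for Ugt1a1 was -1.11 (SE 0.46).

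Cyp3a13 had a difference of 1.79 (SE 0.32) with a limma adjusted p of 0.133, and Ugt2b5 had 1.57 (SE 0.31) with 0.218. Ugt2b37 had 1.26 (SE 0.32) and Cyp4b1 1.15 (SE 0.33). None of these 4 passed after adjustment, so a different response of the 2 systems was called for Ces1g alone among the members. Over the 50 genes the median difference was 0.02, with 26 above 0. By family it was 0.69 for Ugt, 0.42 for Ces, 0.32 for Cyp3, -0.16 for Cyp4, -0.25 for Cyp2 and -0.36 for Sult. With the organoid ratio the last 3 turned to 0.32, 0.25 and 0.21. Leaving out 1 replicate or culture turned the sign in at least 1 case for Ces, Cyp3, Cyp4 and Sult, with Cyp3 at -0.81 without crypt replicate 1, and in none for Ugt and Cyp2.

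**Figure D3:**
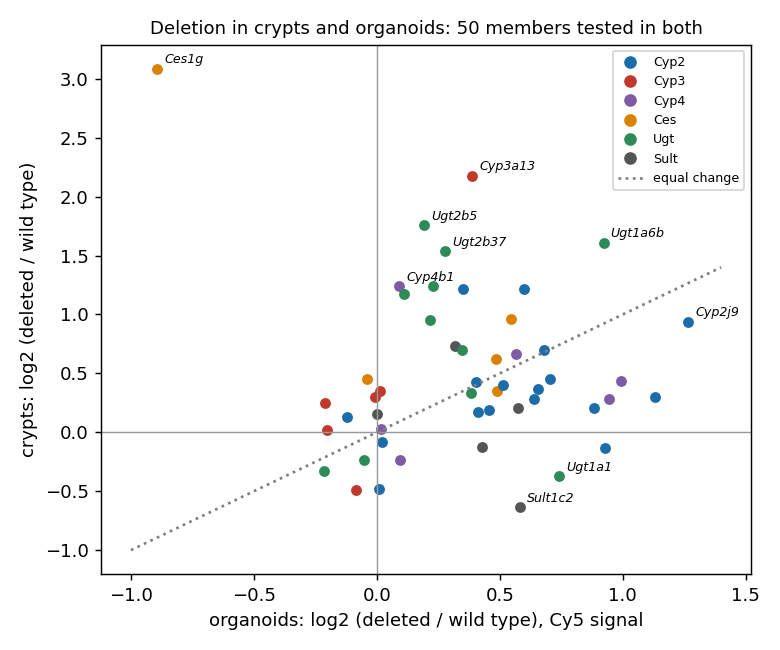
Fitted log2 change in deleted organoids (x axis, Cy5 signal) against that in deleted crypts (y axis) for the 50 genes tested in both, with 1 point per gene in its family's colour and a dotted line where both are equal. Ces1g lies far from the line, at -0.89 in organoids and 3.09 in crypts, several Ugt genes and Cyp3a13 lie above it, and Cyp2j9 has the highest organoid value at 1.27.

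The last comparison sets organoids without R-spondin beside organoids with it, with 1 culture each and therefore no test. Of 75 members measured, 26 were past 2-fold higher, where 4.51% of all 16439 genes were, and 0 were past 2-fold lower, where 6.6% were. The median was 0.64 against 0.07 over all genes, and 68 of 75 were above 0. By Cy5 alone 42 of 78 members were past 2-fold higher and 1 lower, beside 5.49% and 7.22% of all genes. By the scanner software's processed signals 16 of 75 were higher and 1 lower, beside 8.5% and 8.6% of all genes. By family the medians were 1.19 for Ugt, 0.93 for Cyp3, 0.83 for Ces, 0.44 for Sult, 0.35 for Cyp2 and 0.33 for Cyp4. These values describe a pair of cultures and carry no error between cultures. The log2 changes are from the ratio to the reference, so the Cy5 signals given below need not yield the same change.

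The P450 genes with the greatest values were Cyp2c23, an arachidonic acid epoxygenase, at 2.25 and Cyp2c55 at 1.86. The Cyp2c23 Cy5 signal was 1524 without and 323 with R-spondin and that of Cyp2c55 was 26657 without and 6301 with. Cyp2j9 gave 1.83, from 7129 without and 1933 with. Cyp2c55 had been lower in deleted crypts, and it had no fitted value in deleted organoids.

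All 6 Cyp3a genes were above 0, from 0.36 for Cyp3a11 to 1.43 for Cyp3a25, with Cyp3a41a at 1.29 and Cyp3a16 at 1.04. The Cyp3a25 Cy5 signal was 9547 without and 2301 with R-spondin. By processed signals, however, Cyp3a25 gave -0.10 and Cyp3a44 -0.16, so the direction of these 2 depends on the processing, while the other 4 were above 0. Cyp3a13 gave 0.82 by the ratio and 1.72 by Cy5 alone. In family 4, Cyp4f16 gave 1.28, Cyp4v3, another fatty acid hydroxylase, 1.21, and Cyp4f13 0.86.

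Among the esterases Ces1g gave 1.81, with a Cy5 signal of 5790.2 without and 1397 with R-spondin, and its second probe gave 1.75. Ces1d gave 1.26 and Ces2c 0.83. Ces1g was thus higher in deleted crypts and without R-spondin, and lower by Cy5 in deleted organoids.

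Every Ugt gene measured was above 0, and 9 of 12 were past 2-fold. Ugt2a3 and Ugt2a1 led at 2.05 and 1.97, with Cy5 signals of 21448 without and 5519.9 with and of 4456 without and 1011 with. Both had been below 0 in the fits for deleted crypts and deleted organoids. Ugt2b5 gave 1.83, from 22743 without and 6272 with. Of the sulfotransferases Sult1d1 gave 1.81, Sult1b1 1.28 and Sult2b1 1.02, while Sult1b1 gave -0.64 by processed signals.

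The lowest member was Cyp2e1, the ethanol-oxidising P450, at -0.95, above background with R-spondin and not without, so its lower level is only a bound. In the same cultures all 7 stem cell markers measured were past 2-fold lower, with a median of -3.52. The 9 enterocyte markers with a ratio to the reference had a median of 0.23. By Cy5 alone, a different measure, the summed signal of 10 enterocyte markers was 218185 without and 98907 with R-spondin. Lgr5 was above background with R-spondin and not without. The pathway lists had medians of 0.95 for transporters, 0.87 for the other oxidising enzymes, 0.69 for regulators, 0.64 for electron and haem supply and 0.39 for cofactor supply, all measured in this pair of cultures.

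**Figure D4:**
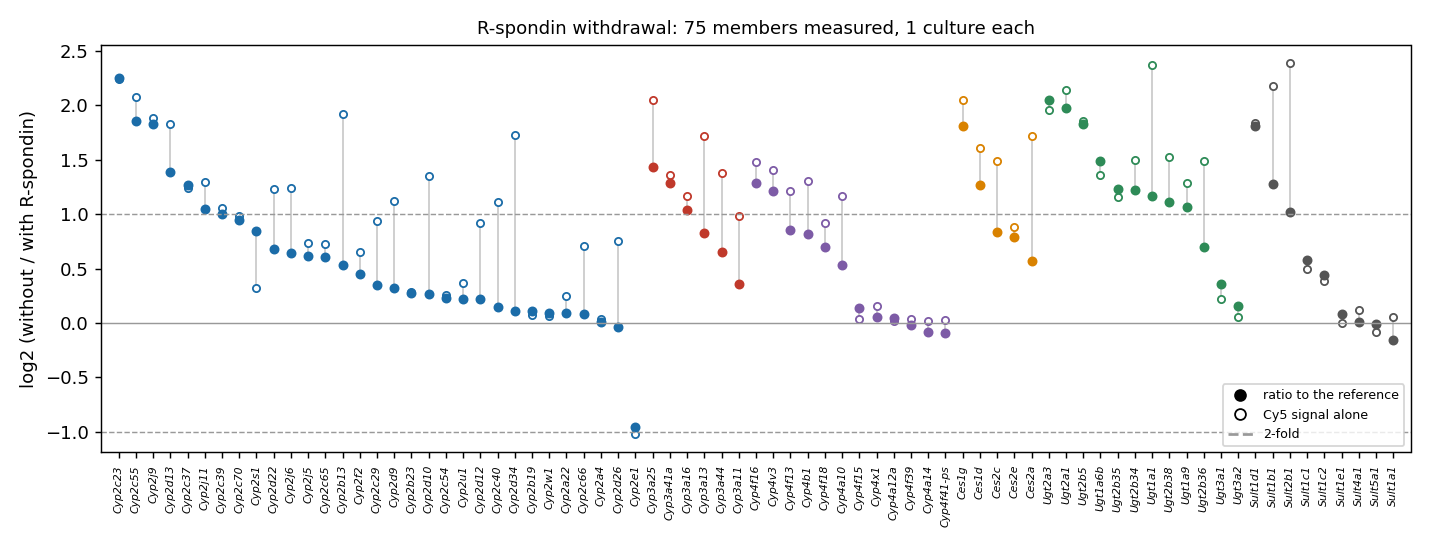
Log2 change without over with R-spondin for the 75 genes measured, grouped and coloured by family and sorted within it, by the ratio to the reference (filled) and by Cy5 alone (open), with dashed lines at 2-fold. By the ratio 26 genes lie above the upper line and 0 below the lower one, and most open points lie above the filled ones.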

How the data were processed

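The 10 two-colour Agilent arrays were read with Feature Extraction, version 10.5.1.1 per the file headers and 8.5.1.1 per the submitters' processing notes. The deposited intensity values are per-spot signals and backgrounds of each dye, as scanned. The deposited log10 values of the series matrix are the authors' ratios, used as an alternative. Here intensities were corrected with normexp (offset 50, outlier spots left out) and normalised by loess within crypt and R-spondin arrays, or by quantiles of Cy5 over the 4 organoid arrays. Both dye arrangements were expressed as deleted relative to wild type, and their mean was taken per replicate; a replicate with 1 array missing used the other (Cyp3a13, Cyp2j6, Ugt1a6b and Cyp4f14). Changes were tested over all genes with limma 3.58.1 in R 4.3.3 and Benjamini-Hochberg adjustment, with 1 residual degree of freedom in crypts, 2 in organoids and 3 in the joint model, so p-values lean on the spread shared across genes. The R-spondin cultures, 1 of each kind, were not tested. Probes were named by RefSeq accession, symbol or synonym, otherwise by the array's name. The code was tested on simulated data.

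The members and lists were chosen with earlier results of these data known. Named with values were members called after adjustment, and in each family the 4 greatest crypt values with 1 sign in both replicates, the 3 greatest organoid values without overlap, the 3 greatest without R-spondin and the 5 smallest p-values of the crypt-organoid difference. A few further members were named after their values were seen. Protein motifs were not analysed here, nor was the Apc deletion signature. Alternatives covered background correction, normalisation, filters, probe choice, dyes, slides and left-out replicates.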

Additional observations from a re-analysis of the deposited data

Results flagged for a closer look

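For Ces2e in crypts, 1 array stood apart from the other 3. It was the array of replicate 1 with deleted RNA in Cy3, at a log2 ratio of 1.13, against 0.42, 0.43 and 0.51. It was 1 of 34 named members tested in this way, and no family median stood apart. The arrays are pairs from the same replicates and so not independent, and the share that chance alone would mark is not known.

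The response of Ces1g differed between crypts and organoids, with a difference of 3.98 on the log2 scale (SE 0.40, limma adjusted p 0.00865). Both crypt replicates were above 0 and both organoid slides below 0 by Cy5.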

How the results depend on the processing

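Precision was limited by 2 replicates a group, by the faulty reference channel of the organoid deletion arrays and by replicate 1 of the crypts. In crypts, 7 genes passed the adjusted threshold in all, and 762 with processed signals, 321 with median centring, 514 in the series matrix, 0 without the dim-probe filter, 100 with probe means, 490 with deleted RNA in Cy3, 104 in Cy5, and 3 to 371 with 1 replicate left out. The counts with 1 replicate left out rest on 1 crypt value per gene, which has no spread of its own. They are therefore not calls for crypts and cannot be compared with the other counts. The member median was 0.64 with median centring, where that of all genes was 0.16. This median was 0.077 without the filter, and 0.33 to 0.49 with 1 replicate left out. Sult1c1 was -0.00050 in Cy3. In organoids, 4 genes passed in all. The ratio gave 0 genes and a median of 0.067. At an unadjusted p under 0.05 it put 2 of 57 members higher, beside 2.02% of all genes. By the ratio Cyp2j9 was -0.38, Cyp3a16 0.061, Cyp4f13 -1.82, Cyp4f18 -0.040, Ces1g 0.0084, Ces2c -0.17, Ugt2b35 -0.22 and Ugt2b37 -0.18. Scaling to the 75th percentile gave 9 genes and a median of 0.41, and processed Cy5 gave 74 and 0.32. The slide as a block, which pairs the cultures of a slide, gave 300 genes, 4 of them members, and 23 members higher at an unadjusted p under 0.05. Without the filter 0 genes passed after adjustment, and 13 of 87 members were higher at an unadjusted p under 0.05, beside 3.07% of all genes. The median was then 0.13, and within slides the medians were 0.29 and 0.32. Leaving out 1 culture gave 3 to 151 genes after adjustment, 2 to 15 members higher at an unadjusted p under 0.05 and medians of 0.18 to 0.38. Without R-spondin, Cy5 gave 42 members and a median of 1.14. Processed signals gave 1397 genes past 2-fold higher, 16 members and 0.43, with Cyp3a25 at -0.10 and Sult1b1 at -0.64, and a median of all genes of 0.18. The series matrix gave 1206, 16 and 0.37, with these genes at -0.16 and -0.70. Without the filter the median was 0.53. For the crypt-organoid difference, 11 genes passed in all. The organoid ratio gave 4 and Ces1g 3.08. Leaving out any 1 organoid culture or crypt replicate gave Ces1g 3.71 to 4.25, with 3.74 without crypt replicate 2. The cause of these shifts was not tested.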

Other observations

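Another 15 relatives of these families stood on the array under names outside the rule. Ces1f, a lipid esterase, was 1.62 and 1.98 in the crypt replicates, a fit of 1.80 with a limma adjusted p of 0.0627, and -0.02 in deleted organoids. Ces2b gave 0.87 in crypts, 0.61 in organoids by Cy5 and -0.17 by the ratio to the reference, and 1.29 without R-spondin. Ces1b gave 0.80, -0.52 and 0.94. Ces3b gave -0.12 in crypts and 2.06 without R-spondin. Ces1c, Ces2g and Sult2a8 were also negative in crypts, at -0.25, -0.0083 and -0.19. Each had replicates of opposite sign, at -0.79 and 0.29 for Ces1c, -0.055 and 0.038 for Ces2g, and 0.14 and -0.52 for Sult2a8. The replicate 1 value of Ces1c came from 1 array. The 8 relatives tested in crypts had a median of 0.15, the 9 in organoids 0.33 and the 10 without R-spondin 0.56.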
